A study of Homo sapiens with 4 samples.

Results

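The genes described here are the well-expressed members of the ZNF series of human zinc finger genes, measured in the bladder cancer cell line UM-UC-3. They were chosen by symbol and by mean level. A member is a gene whose symbol in the platform annotation is ZNF followed by digits only and whose probe set with the highest mean reads at least 7.0 on the log2 scale, averaged over all 4 arrays. Of 425 such symbols on the array, 309 had a probe set that entered the test, and 148 of these met the level of 7.0, out of 12123 genes tested and 19775 genes named. The level that chose the members averages both groups, so a gene near it can enter through the group where it is high. ZNF704, for example, had a mean of 7.98 in GFP-RhoGDI2 cells and 6.69 in GFP cells. ZNF107 and ZNF91 had means of 6.66 and 6.99 in GFP-RhoGDI2 cells, against 7.51 and 7.78 in GFP cells. The family was proposed with earlier results of these arrays in view, so its joint shift is given as a description and without a test. The other 161 tested ZNF genes read below 7.0.

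The study asked which genes respond to RhoGDI2, the product of ARHGDIB. One line stably carried a GFP-RhoGDI2 fusion and had been sorted on the fluorescence of that protein. The control cells carried GFP alone from the empty vector, introduced with a puromycin resistance plasmid for selection, and were sorted for GFP. Each group had 2 arrays, A and B, from RNA of cells in log phase growth; preparations A and B were made at different times and each holds 1 array of both groups. A free-text note on the GFP-RhoGDI2 samples speaks of the control transfection; their titles, sources and genotypes were followed. The labels do not say if a line was a pool or a clone, or if A and B were transfected separately. A difference that arose when a line was made cannot be told apart from one due to the introduced gene.

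ARHGDIB itself read 11.94 and 11.58 in GFP-RhoGDI2 cells, against 6.51 and 6.27 in GFP cells. Of 6 epithelial markers, KRT8 read 8.52 and 8.39 in GFP-RhoGDI2 cells, against 9.80 and 9.58 in GFP cells, and KRT18 read 12.99 and 13.03 in GFP-RhoGDI2 cells, against 13.60 and 13.61 in GFP cells; KRT19, EPCAM and CDH1 lay below the filter level of 4.64. KRT7 differed by -0.15 (adjusted p = 0.530 in the limma fit). Of 9 urothelial markers matched, 0 reached 7.0. PPARG was called higher, with 5.85 and 5.77 in GFP-RhoGDI2 cells, against 4.46 and 4.61 in GFP cells (1.27, adjusted p = 0.00337). GATA3, the other urothelial marker tested, differed by -0.20 (adjusted p = 0.428 in the limma fit). FOXA1, KRT5, KRT20 and the uroplakin genes UPK1A, UPK1B, UPK2 and UPK3A lay below the filter. Markers of leukocytes (3 matched), endothelial cells (3) and fibroblasts (4) read between 3.01 and 5.31 and 0 of them reached 7.0. The 3′ minus 5′ reading of the actin control probe sets, a sign of RNA integrity, was 0.742 and 0.824 in GFP-RhoGDI2 cells, against 0.937 and 0.902 in GFP cells; for GAPDH it was 0.0425 and 0.0108, against 0.0531 and 0.0303.

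ZNF symbols name proteins with zinc fingers, small folds that hold a zinc ion, most often of the C2H2 type, in which a row of fingers reads DNA bases. The largest subfamily joins such fingers to a KRAB domain, which recruits the corepressor TRIM28 (KAP1) and with it the methyltransferase SETDB1 and heterochromatin proteins; many of these proteins silence transposable elements. KRAB zinc finger genes arose by repeated duplication and lie in clusters, above all on chromosome 19. Other ZNF proteins have no KRAB domain and act as activators, repressors, RNA-binding proteins or cofactors.

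Among the members lower in GFP-RhoGDI2 cells, 5 genes from chromosomes 7 and 19 have closely alike promoters. Their promoter windows (250 bases before to 50 after the annotated start, 300 bases, RefSeq, GRCh38.p14) are shown with the window of ZNF267 from chromosome 16, which was lower too, because the results on position and promoters below turn on them. They lie at chr7:64665883-64666182 (plus strand, ZNF107), chr7:65373605-65373904 (plus strand, ZNF92), chr7:64563022-64563321 (minus strand, ZNF680), chr19:23395422-23395721 (minus strand, ZNF91), chr19:21836133-21836432 (minus strand, ZNF43) and chr16:31873557-31873856 (plus strand, ZNF267). Capitals mark CCAAT boxes and a 14-base block held by all 6 windows.
ZNF107: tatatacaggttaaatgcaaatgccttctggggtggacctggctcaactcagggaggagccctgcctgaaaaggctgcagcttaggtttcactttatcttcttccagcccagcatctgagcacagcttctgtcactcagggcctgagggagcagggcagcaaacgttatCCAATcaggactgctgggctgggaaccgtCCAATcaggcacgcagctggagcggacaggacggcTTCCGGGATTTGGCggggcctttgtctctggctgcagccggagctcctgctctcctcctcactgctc
ZNF92: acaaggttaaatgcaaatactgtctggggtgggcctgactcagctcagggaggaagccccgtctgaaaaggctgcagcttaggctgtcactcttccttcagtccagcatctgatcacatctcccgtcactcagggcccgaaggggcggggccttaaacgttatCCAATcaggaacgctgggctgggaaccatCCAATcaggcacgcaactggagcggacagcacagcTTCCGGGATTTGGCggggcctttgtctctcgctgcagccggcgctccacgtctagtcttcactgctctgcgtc
ZNF680: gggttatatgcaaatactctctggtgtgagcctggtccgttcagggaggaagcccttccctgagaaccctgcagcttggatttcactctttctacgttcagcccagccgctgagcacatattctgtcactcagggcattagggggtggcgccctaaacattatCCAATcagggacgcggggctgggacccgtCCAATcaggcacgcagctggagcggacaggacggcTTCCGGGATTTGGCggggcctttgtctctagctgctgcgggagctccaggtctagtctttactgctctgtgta
ZNF91: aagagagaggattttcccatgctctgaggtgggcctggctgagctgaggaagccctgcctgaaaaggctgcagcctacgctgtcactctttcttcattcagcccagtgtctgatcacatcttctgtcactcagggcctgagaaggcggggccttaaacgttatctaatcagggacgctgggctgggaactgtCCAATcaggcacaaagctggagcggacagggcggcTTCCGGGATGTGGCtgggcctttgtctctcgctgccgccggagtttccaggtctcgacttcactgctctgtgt
ZNF43: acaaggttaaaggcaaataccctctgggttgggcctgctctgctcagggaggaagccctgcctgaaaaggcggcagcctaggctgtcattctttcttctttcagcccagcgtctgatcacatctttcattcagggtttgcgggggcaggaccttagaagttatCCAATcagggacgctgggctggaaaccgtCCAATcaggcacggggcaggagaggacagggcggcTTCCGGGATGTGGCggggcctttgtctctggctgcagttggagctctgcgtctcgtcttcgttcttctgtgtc
ZNF267: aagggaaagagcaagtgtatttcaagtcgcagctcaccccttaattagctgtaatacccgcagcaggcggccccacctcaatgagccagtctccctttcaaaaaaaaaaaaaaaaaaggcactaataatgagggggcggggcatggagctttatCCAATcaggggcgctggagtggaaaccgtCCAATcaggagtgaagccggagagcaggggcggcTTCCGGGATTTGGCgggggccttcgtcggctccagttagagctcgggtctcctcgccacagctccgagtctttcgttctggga

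Most well-expressed ZNF genes read lower in GFP-RhoGDI2 cells, by a small amount. The log2 difference, GFP-RhoGDI2 minus GFP, was below 0 in 112 of 148 members, with a median of -0.15 and quartiles of -0.28 and -0.01. Over all 7492 tested genes with a mean of at least 7.0, 53.1% were below 0 and the median was -0.02. The members' median was -0.13 within preparation A and -0.16 within preparation B, where 112 and 110 members were below 0; 96 were below 0 in both preparations and 22 above 0 in both. Both GFP-RhoGDI2 arrays read below both GFP arrays in 87 members (58.8%) and above them in 19 (12.8%), while these shares were 32.5% and 27.9% over all tested genes with a mean of at least 7.0. The family stretched from -0.90 for ZNF462 to 1.29 for ZNF704, with an SD across genes of 0.28, so that members differ from each other by more than the family's median departs from 0. In a culture, fewer cells of a kind and less RNA per cell cannot be told apart. The actin 3′ minus 5′ reading and the keratins KRT8 and KRT18 given above were also lower on both GFP-RhoGDI2 arrays and PPARG was higher; their part in the shift was not tested.

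**Figure D1:**
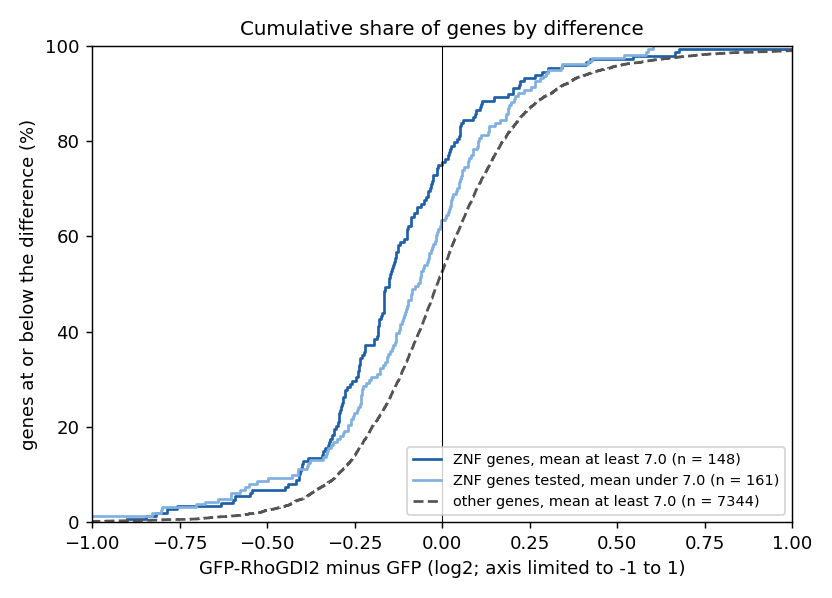
Cumulative share of genes (y axis, %) at or below each log2 difference, GFP-RhoGDI2 minus GFP (x axis), for 148 ZNF genes with a mean of at least 7.0, 161 tested ZNF genes below that level and 7344 other genes with a mean of at least 7.0. The axis is limited to differences of -1 to 1, which leaves out ZNF704 among the members. Genes of the other curves are cut too, such as ZNF268 (-1.49) and ZNF350 (-1.12) below 7.0. The other genes with a mean of at least 7.0 run from -2.89 to 5.37. At a difference of 0 the curve of the well-expressed ZNF genes stands at 75.7% and that of the other genes at 52.6%.

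The shift was present at each level of expression examined. The median difference was -0.15 for 84 members with means of 7 to 8, -0.10 for 39 members of 8 to 9 and -0.22 for 25 members of 9 and above, while the medians of all tested genes in these ranges were -0.02, -0.02 and -0.01. The 161 tested ZNF genes below 7.0 had a median of -0.07, with 63.4% below 0. A difference of -0.25 or lower was found in 44 members (29.7%), against 14.3% of all tested genes with a mean of at least 7.0, and one of 0.25 or higher in 10 members (6.76%), against 13.0%.

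Past the threshold of the limma fit (adjusted p under 0.05 over all probe sets tested, preparation as a block), 11 members fell and 4 rose. Over all tested genes, 3.35% were called lower and 4.83% higher; over those with a mean of at least 7.0, 3.27% and 4.7%. The members' shares were 7.43% lower and 2.70% higher. Without the preparation block 5 were lower and 2 higher, where 1.99% and 3.3% of all tested genes were. With an intensity trend in the variances 39 were lower and 10 higher (12.2% and 11.6% of all tested genes).

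Leaving out 1 array, without the block, gave smaller counts. Without GFP A, 6 members were lower and 1 higher (1.09% and 2.21% of all tested genes). Without GFP B, 2 were lower and 1 higher (0.982% and 2.49%). Without GFP-RhoGDI2 A, 1 was lower and 1 higher (0.495% and 1.68%), and without GFP-RhoGDI2 B, 3 were lower and 0 higher (0.52% and 1.25%). With no filter on low values there were 7 lower and 3 higher members (1.19% and 2.33%), and with the mean of each gene's probe sets 22 and 5 (7.93% and 8.83%). Probe sets above the upper quartile of mean level gave 38 and 9 (13.1% and 12.1%), and an adjusted p under 0.01 left 1 and 1 (0.478% and 1.53%). Robust moderation gave 11 and 4 (3.25% and 4.74%), and a further quantile normalization 9 and 4 (2.96% and 4.22%).

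**Figure D2:**
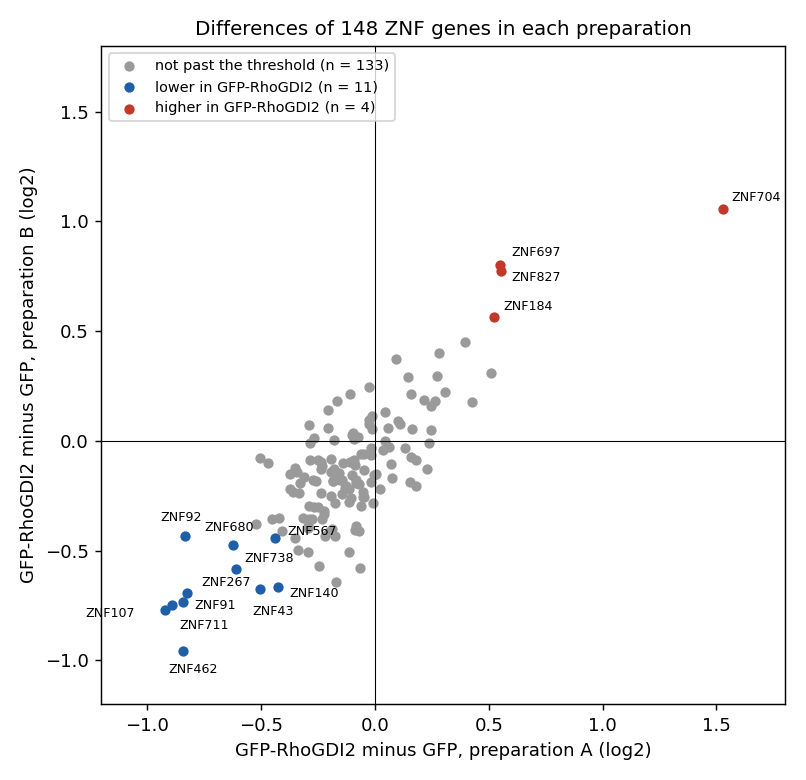
Log2 difference, GFP-RhoGDI2 minus GFP, of each of the 148 members in preparation A (x axis) and preparation B (y axis); blue points fell, red points rose and grey points did not pass the threshold. Of the 148 points, 96 lie below 0 on both axes, and ZNF704 stands at the upper right with 1.53 in A and 1.06 in B.

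The differences of the members in A and B correlated at r = 0.80 across the 148 genes, against 0.86 across all tested genes with a mean of at least 7.0. Genes are not independent replicates, and the 2 preparations share the same lines, so this describes repeatability within these lines.

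The largest fall among the members was in ZNF462, which encodes a large C2H2 protein known from a human neurodevelopmental syndrome. It read 8.02 and 7.92 in GFP-RhoGDI2 cells, against 8.86 and 8.87 in GFP cells. The groups stood well apart, and the log2 difference was -0.90 (SE 0.0949, adjusted p = 0.00785 in the limma fit), 1.87-fold lower. Another ZNF462 probe set was at -0.65 (adjusted p = 0.0247). Of the 15 called members, ZNF462 alone kept its call with each array left out in turn, while ZNF92, ZNF738, ZNF680, ZNF140, ZNF567 and ZNF184 were called in 0 of these 4 fits.

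ZNF711, an X-linked gene of the ZFX family whose product binds with the histone demethylase PHF8, read 7.79 and 7.89 in GFP-RhoGDI2 cells, against 8.68 and 8.64 in GFP cells. Replicates lay close together in both groups. The difference was -0.82 (SE 0.096, adjusted p = 0.0108), and another probe set gave -0.84 (adjusted p = 0.0127). Its call was lost when GFP-RhoGDI2 A was left out (adjusted p = 0.0596).

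The genes of the shown promoters were picked among members called lower, so their joint fall follows from that choice. ZNF107 read 6.45 and 6.87 in GFP-RhoGDI2 cells, against 7.38 and 7.64 in GFP cells, a difference of -0.85 (SE 0.097, adjusted p = 0.01004). ZNF91, whose KRAB protein represses SVA retrotransposons, read 6.76 and 7.23 against 7.60 and 7.96 in GFP cells, a difference of -0.79 (SE 0.0945, adjusted p = 0.0116). In both genes preparation B was higher than A in each line and the GFP-RhoGDI2 array was lower in each preparation.

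ZNF267, a KRAB zinc finger gene, read 7.02 and 7.38 in GFP-RhoGDI2 cells, against 7.84 and 8.08 in GFP cells, a difference of -0.76 (adjusted p = 0.0133). ZNF92 read 7.34 and 8.13 in GFP-RhoGDI2 cells, against 8.17 and 8.57 in GFP cells, a difference of -0.63 (SE 0.124, adjusted p = 0.0412). The ranges of ZNF92 were nearly touching, with the GFP-RhoGDI2 B array just below the GFP A array. Its difference was -0.23 when GFP-RhoGDI2 A was left out and -1.03 when GFP-RhoGDI2 B was, and its call was lost without the block (adjusted p = 0.222).

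ZNF43 read 7.09 and 7.33 in GFP-RhoGDI2 cells, against 7.59 and 8.01 in GFP cells, a difference of -0.59 (adjusted p = 0.0272). ZNF680 read 6.99 and 7.48 in GFP-RhoGDI2 cells, against 7.62 and 7.95 in GFP cells, a difference of -0.55 (adjusted p = 0.0317). Both are KRAB zinc finger genes. The difference of ZNF680 was -0.31 when GFP-RhoGDI2 A was left out, and that of ZNF43 was -0.38 when GFP B was. Without the block the calls of ZNF43 (adjusted p = 0.0976), ZNF680 (0.155) and ZNF91 (0.0670) were lost, while those of ZNF107 (0.0372) and ZNF267 (0.0420) were kept.

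ZNF738, which lies near ZNF43 on chromosome 19, read 7.51 and 7.77 in GFP-RhoGDI2 cells, against 8.13 and 8.36 in GFP cells, a difference of -0.60 (adjusted p = 0.0222). ZNF140, a KRAB repressor gene on chromosome 12, read 8.13 and 7.96 in GFP-RhoGDI2 cells, against 8.56 and 8.62 in GFP cells, a difference of -0.54 (adjusted p = 0.0391). For ZNF567, another KRAB zinc finger gene of chromosome 19, the readings were 8.17 and 8.31 in GFP-RhoGDI2 cells, against 8.61 and 8.75 in GFP cells, a difference of -0.44 (adjusted p = 0.0468). The groups did not overlap in any of these 3 genes. The calls of ZNF738 and ZNF567 were lost without the block (adjusted p = 0.0610 and 0.0822).

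The 4 members that rose are not of the chromosome 19 clusters. ZNF704 rose most: it read 7.77 and 8.201 in GFP-RhoGDI2 cells, against 6.24 and 7.14 in GFP cells. The GFP arrays were farther apart than the GFP-RhoGDI2 arrays, and both GFP-RhoGDI2 values lay above them. The difference was 1.29 (SE 0.134, adjusted p = 0.00740), or 2.45-fold, with a second probe set at 0.89 (adjusted p = 0.0228). The difference was 0.84 when GFP A was left out and 1.74 when GFP B was, and the call was lost without the block (adjusted p = 0.0540).

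ZNF395, a paralogue of ZNF704 known as a hypoxia-responsive transcription factor gene, read 9.09 and 9.07 in GFP-RhoGDI2 cells, against 8.70 and 8.62 in GFP cells. Its difference of 0.42 (95% interval 0.19 to 0.65) missed the threshold (adjusted p = 0.0532). SLC2A4RG, the other paralogue of these genes and no ZNF symbol, read 8.47 and 8.56 in GFP-RhoGDI2 cells, against 8.12 and 8.06 in GFP cells, a difference of 0.42 (adjusted p = 0.0583). Another tested ZNF395 probe set had the opposite sign, at -0.06 (adjusted p = 0.736), so its probe sets disagree. Of the 3 paralogues ZNF704 alone passed the threshold.

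ZNF697 read 8.89 and 9.25 in GFP-RhoGDI2 cells, against 8.34 and 8.45 in GFP cells, a difference of 0.68 (adjusted p = 0.0228). ZNF827, whose product recruits the NuRD complex to telomeres kept by recombination, read 7.96 and 8.06 in GFP-RhoGDI2 cells, against 7.40 and 7.29 in GFP cells, a difference of 0.66 (adjusted p = 0.0224). ZNF184, a KRAB zinc finger gene of chromosome 6, read 7.86 and 8.15 in GFP-RhoGDI2 cells, against 7.33 and 7.59 in GFP cells, a difference of 0.54 (adjusted p = 0.0283). All 5 tested ZNF827 probe sets were higher in GFP-RhoGDI2 cells, from 0.42 to 0.66, and 2 of them were called. The call of ZNF184 was lost without the block (adjusted p = 0.0888).

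**Figure D3:**
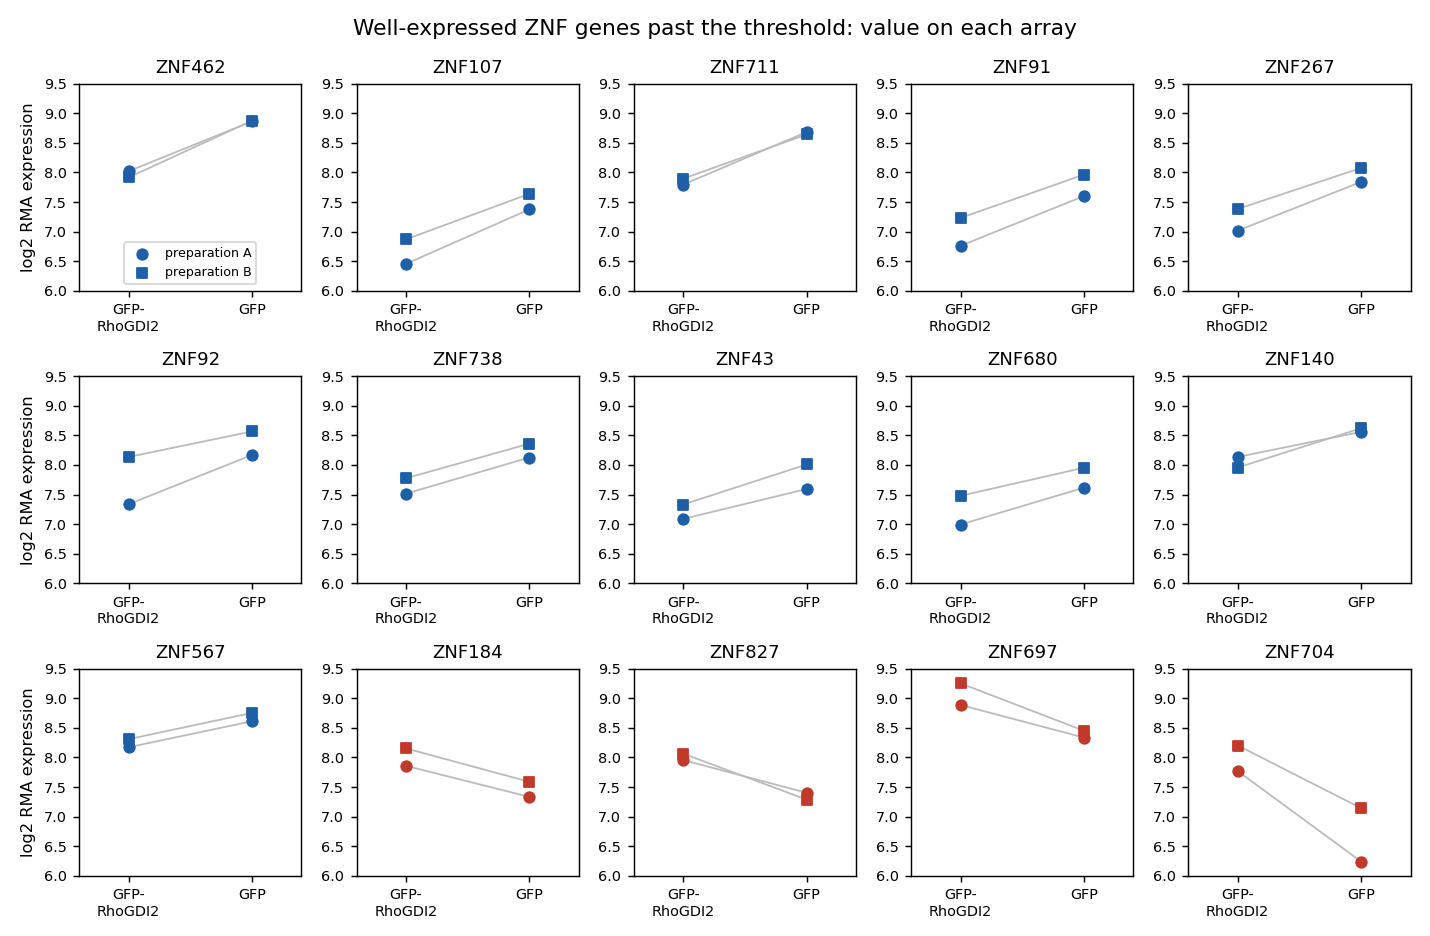
Log2 RMA expression (y axis) of the 15 members past the threshold on each array, GFP-RhoGDI2 left and GFP right; circles are preparation A, squares preparation B, and lines join the arrays of a preparation. In each panel both GFP-RhoGDI2 values lie on the same side of both GFP values, below in the 11 blue panels and above in the 4 red panels.

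A further 12 members lay below 0 and 3 above 0 at an adjusted p between 0.05 and 0.10. The nearest to the threshold was ZNF275, with 8.87 and 8.91 in GFP-RhoGDI2 cells, against 9.40 and 9.28 in GFP cells, a difference of -0.45 (adjusted p = 0.0512). Its other tested probe set was called at -0.53 (adjusted p = 0.0362). At this looser threshold 23 members were lower and 7 higher, where 7.78% and 8.48% of all tested genes were.

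The readings that chose the members were highest in ZNF207, ZNF664, ZNF706 and ZNF146, and levels of different probe sets cannot be ranked as transcript amounts. ZNF207, whose protein acts at kinetochores and the mitotic spindle, read 12.03 and 11.91 in GFP-RhoGDI2 cells, against 12.02 and 12.06 in GFP cells. ZNF664 read 11.59 and 11.40 in GFP-RhoGDI2 cells, against 11.61 and 11.47 in GFP cells. In both genes the groups overlapped, with differences of -0.07 (95% interval -0.31 to 0.17) and -0.04 (-0.27 to 0.19). ZNF706 read 11.23 and 11.12 in GFP-RhoGDI2 cells, against 10.92 and 10.90 in GFP cells (0.26, adjusted p = 0.147). ZNF146 read 10.83 and 10.87 in GFP-RhoGDI2 cells, against 11.05 and 11.196 in GFP cells (-0.27, adjusted p = 0.141).

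At the edge of the level that chose the members, ZNF493 (mean 7.01, difference -0.24) and ZNF558 (mean 7.01, difference 0.30) were just inside. ZNF580 (mean 6.99, difference -0.02) and ZNF268 (mean 6.97) were just outside. ZNF268 read 6.12 and 6.33 in GFP-RhoGDI2 cells, against 7.63 and 7.79 in GFP cells, a difference of -1.49. That is farther from 0 than in any of the 148 members, so the level leaves out the ZNF gene with the largest difference among those tested. Also below 7.0, ZNF350 read 5.09 and 5.37 in GFP-RhoGDI2 cells, against 6.201 and 6.51 in GFP cells (-1.12, adjusted p = 0.00341). In all, 14 of the 161 tested ZNF genes below 7.0 were called lower (8.70%) and 3 higher (1.86%), against 3.35% and 4.83% of all tested genes.

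Genes with a second probe set allow a look at other probes on the same arrays. For 85 members 128 further probe sets were tested, and 99 of them had the same sign as the member's main probe set. The further probe sets of the 15 called members numbered 11, from 7 genes; all 11 had the sign of the main one, and 5 were called. The remaining 63 members rest on 1 probe set. These probe sets share the arrays and the RNA, so they check the probes and not the cells.

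All 148 members were placed by gene identifier in the RefSeq gene order (GRCh38.p14): 58 lie on chromosome 19, 15 on chromosome 7 and 11 on chromosome 1. The median difference was -0.15 for the 58 members on chromosome 19 and -0.16 for the 90 elsewhere. Other genes of chromosome 19 with a mean of at least 7.0 had a median of 0.02, over 355 genes. For each member, the median difference of the 50 nearest tested genes of no zinc finger symbol was taken as its surroundings; these medians ran from -0.23 to 0.19. Members read below their surroundings in 106 of 148 cases. Over all 148 members, the median of the member's difference minus that of its surroundings was -0.15. ZNF462 lay 0.76 below its neighbours' median of -0.14, and ZNF704 stood 1.21 above its neighbours' median of 0.08.

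Within chromosomes, neighbouring ZNF genes differed together in some clusters and not in others. Tested ZNF genes with starts less than 1 Mb apart were joined into runs, a grouping chosen after the differences were known. In all, 12 runs held at least 3 members. Over all tested genes, 52.6% were below 0, 3.35% were called lower and 4.83% higher. The run from ZNF736 to ZNF92 on chromosome 7 held 6 tested ZNF genes, all below 0, and 4 of them were called lower: ZNF107, ZNF92, ZNF680 and ZNF273 (-0.60). Its 3 members had a median of -0.63, while the 50 nearest other genes had a median of 0.03.

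The run from ZNF101 to ZNF254 on chromosome 19, which holds ZNF91 and ZNF43, had 18 tested ZNF genes. Of these, 17 were below 0, 7 were called lower and 0 higher (3.35% and 4.83% of all tested genes). The run's 50 nearest other genes had a median of -0.003. Its 7 members were all below 0, with a median of -0.40, from -0.79 for ZNF91 to -0.24 for ZNF101. Among the members that missed the threshold, ZNF85 read 6.94 and 7.35 in GFP-RhoGDI2 cells, against 7.29 and 7.79 in GFP cells (-0.40, adjusted p = 0.0628), and ZNF430 read 7.33 and 7.52, against 7.78 and 7.88 in GFP cells (-0.40, adjusted p = 0.0606). ZNF85 is the only one of these members whose groups overlap, since its GFP-RhoGDI2 B value exceeds its GFP A value. Another tested ZNF430 probe set, with a mean of 4.98, was at -0.14 (adjusted p = 0.415). ZNF431 was the gene of the run above 0 (0.23, adjusted p = 0.193).

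The run from ZNF605 to ZNF268 on chromosome 12 held 6 tested ZNF genes, all below 0, with ZNF268, ZNF605 (-0.70) and the member ZNF140 called lower. Its other members were ZNF84, at 8.66 and 8.58 in GFP-RhoGDI2 cells, against 8.995 and 9.07 in GFP cells (-0.42, adjusted p = 0.0624), and ZNF26 (-0.29, adjusted p = 0.141). Another tested probe set of ZNF84 was at -0.05 (adjusted p = 0.804), so its fall was not repeated there. One of ZNF26 was at -0.26 (adjusted p = 0.145). Here the 50 nearest other genes had a median of -0.13, so the surroundings read lower as well.

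The run from ZNF565 to ZNF573 on chromosome 19 had 14 of 16 tested ZNF genes below 0, with the member ZNF567 and ZNF607 (-0.56) called lower. Its 6 members were all below 0, with a median of -0.31, while the 50 nearest other genes had a median of 0.06. The run from ZNF48 to ZNF267 on chromosome 16 had 10 of 11 tested ZNF genes below 0, with ZNF267 alone called lower. The median was -0.33 over its 3 members and -0.16 over all 11, where the 50 nearest other genes had one of -0.15.

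Member medians were nearer 0 in other runs. The run from ZNF628 to ZNF446 on chromosome 19, with 38 tested ZNF genes and 19 members, had a member median of -0.10, with 11 of 19 below 0 and differences from -0.34 to 0.22. The run from ZNF557 to ZNF562 had a member median of -0.04, and that from ZNF576 to ZNF296 one of -0.06. In the run from ZNF175 to ZNF331, 8 of 9 members were below 0 with a median of -0.17, from -0.31 to 0.23. The calls in that run were of 3 genes below the level of 7.0: ZNF350, ZNF331 (-0.80) and ZNF615 (-0.80). The differences between runs were not tested.

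**Figure D4:**
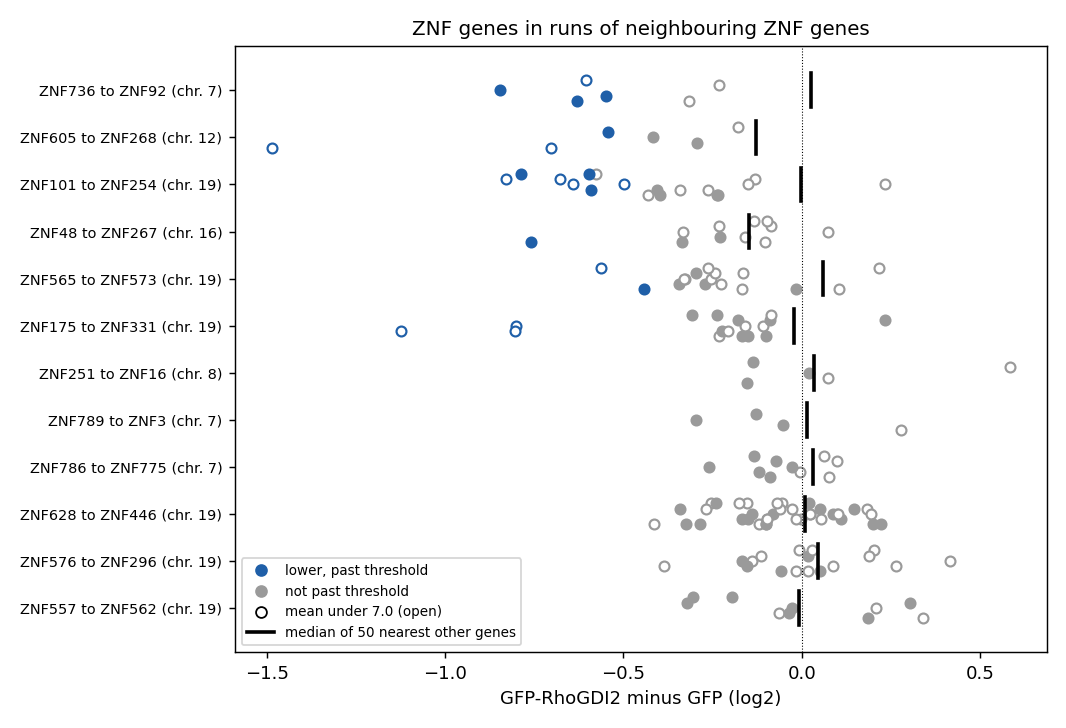
Log2 difference, GFP-RhoGDI2 minus GFP (x axis), of tested ZNF genes in 12 runs of neighbouring ZNF genes (y axis); filled points have a mean of at least 7.0, open points a lower mean, blue points were called lower, and the black bar is the median of the 50 nearest other genes. All 6 points of the run ZNF736 to ZNF92 and 17 of 18 of the run ZNF101 to ZNF254 lie left of 0, while the run ZNF628 to ZNF446 has 24 of 38 there.

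The promoter windows printed above belong to genes of the runs ZNF736 to ZNF92 and ZNF101 to ZNF254 and to ZNF267; ZNF140, of the chromosome 12 run, was 42.5% to 47.9% identical to the 5. Among 11 called members whose windows were compared, the 5 windows of ZNF107, ZNF92, ZNF680, ZNF91 and ZNF43 were 77.3% to 82.5% identical in global alignments (10 pairs), while the other 45 pairs were 42.2% to 58.5% identical. ZNF267 reached 53.2% to 58.5% against the 5. Likeness of promoters and of probe targets goes together in paralogues, and the part of shared probes in these values was not tested.

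From the first bases of an ETS core in these 5 windows onward, the letters TTCCGGGATNTGGC were shared by all 5, with N where they differ. This 14-letter block, derived after the differences were known and overlapping the ETS core, occurred on either strand in 20 of 27305 RefSeq windows of that length (0.0732%), and 19 of these 20 belong to ZNF symbols. Of 14 tested ZNF genes with it, 13 were below 0, 7 were called lower and 0 higher, with a median of -0.49. Over all tested genes, 52.6% were below 0, 3.35% were called lower and 4.83% higher. The 5 genes the block was read from were picked among those called lower, so they are 5 of the 7 calls by choice. Setting aside the 5 it was read from, 9 remained, with 8 below 0, a median of -0.38 and 2 called (ZNF492 and ZNF267). The others were ZNF675 (-0.43), ZNF85 (-0.40), ZNF141 (-0.38), ZNF678 (-0.28), ZNF493 (-0.24), ZNF254 (-0.15) and ZNF431 (0.23). ZNF492, ZNF675, ZNF85, ZNF493, ZNF254 and ZNF431 lie in the same chromosome 19 run as ZNF91 and ZNF43. Carried on to 29 letters, the block shared by the 5 was left in 3 further tested genes, with 2 below 0, 0 called and a median of -0.15. A match is a description of letters, and no binding was measured.

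Commoner promoter motifs were counted on both strands in the 128 members with a window of 300 bases. CCAAT was found in 43.8% of member windows, against 37.6% of those of tested genes with a mean of at least 7.0 and 35.7% of all windows. The ETS core CCGGAA was in 55.5%, against 34.4% and 17.6%. The GC box GGGCGG was in 68.0%, against 72.7% and 44.6%, and the TATA box TATAAA in 2.34%, against 4.74% and 11.95%. Among 9 members called lower with a window, CCAAT was present in 8 and the ETS core in 7. All the windows printed above hold both motifs, and those of ZNF107, ZNF92, ZNF680, ZNF91 and ZNF43 were 77.3% to 82.5% identical. These counts are therefore not of independent promoters. ZNF711 and ZNF140 have no ETS core, and ZNF567 has no CCAAT. The median GC content of member windows was 63.0%.

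The partner genes of KRAB repression did not pass the threshold in the fit used throughout. Of 20 measured, 0 were called in the limma fit, 5 (25%) had an unadjusted p under 0.05, against 27.1% of all tested genes, and the median difference was -0.04. TRIM28, the corepressor bound by KRAB domains, read 11.10 and 11.05 in GFP-RhoGDI2 cells, against 11.26 and 11.08 in GFP cells, a difference of -0.10 (95% interval -0.33 to 0.14). SETDB1, the histone H3 lysine methyltransferase it recruits, differed by -0.01 (-0.23 to 0.22). The farthest from 0 were CHD4, the NuRD remodeller, with 9.20 and 9.07 in GFP-RhoGDI2 cells, against 9.65 and 9.40 in GFP cells (-0.39, adjusted p = 0.0689), the heterochromatin protein gene CBX1 (0.33, adjusted p = 0.0923) and the SETDB1 cofactor gene ATF7IP (-0.27, adjusted p = 0.186). The ATF7IP difference was -0.10 when GFP-RhoGDI2 A was left out and -0.45 when GFP-RhoGDI2 B was. With an intensity trend, CHD4 (adjusted p = 0.00183), CBX1 (0.000718) and ATF7IP (0.0356) were called, and all 3 were also called with probe sets averaged (0.0155, 0.0359 and 0.0492). Above the upper quartile of mean level CHD4 (0.0134) and CBX1 (0.0204) were called. The surroundings of the partner genes on their chromosomes were not examined, so a shift shared with neighbouring genes cannot be told apart here.

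Related zinc finger families with a mean of at least 7.0 gave medians nearer 0. The 20 ZBTB genes, which pair fingers with a BTB domain, had a median of -0.08, with 13 below 0, 2 called lower (ZBTB26 at -0.51 and ZBTB43 at -0.51) and 1 higher (ZBTB10 at 0.60), which is 10% and 5% of them, where 3.27% and 4.7% of all tested genes at that level were called. The 7 ZFP genes had a median of 0.02 and the 10 ZNF genes whose symbols end in letters one of -0.11, with 0 called in either (limma; 0 and 1 at an unadjusted p under 0.05, where 28.9% of all tested genes at that level were). The 3 ZKSCAN genes had a median of 0.005 and the 2 ZSCAN genes one of 0.10. In both families 0 were called and 0 had an unadjusted p under 0.05 in the limma fit. The surroundings of all these related genes on their chromosomes were not examined, so a shift shared with neighbouring genes cannot be told apart here. Whether these families differ from the 148 members was not tested.

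Probes that can match several transcripts bear on this family, since its members are alike in sequence. Of the 148 members, 44 are read by probe sets of classes that may match several transcripts (marked by _s_at or _x_at), with a median of -0.16, and 104 by others, with a median of -0.15. Of the called members, ZNF107, ZNF43 and ZNF680 rest on _x_at probe sets and had no other above the filter. ZNF85 and ZNF430, not called, also rest on _x_at probe sets. Reads of all these genes and their near-identical relatives cannot be told apart here. Without these classes 114 members remained, with 9 lower, 4 higher (3.41% and 5.02% of all tested genes) and a median of -0.14.

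The members also moved between preparations. The A minus B differences of the 2 lines correlated at r = 0.488 across the 148 members and at 0.264 across all tested probe sets. These are descriptions across genes and of unlike sets. The members have means of at least 7.0 and the tested probe sets means down to 4.64, so the 2 values cannot be compared directly. In ZNF107, ZNF91, ZNF267, ZNF92, ZNF43 and ZNF680 preparation B read higher than A in both lines.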

How the data were processed

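Expression was measured on the Affymetrix HG-U133 Plus 2.0 array in 2 groups of 2 samples, paired by preparation per the labels. The authors deposited log2 expression values, one for each probe set; the submitters' processing notes name RMA. The software and its version are not given, nor which arrays were normalized jointly; array medians were 4.62 to 4.65. The small number of arrays limits the precision, and no detection calls were used. Of 54675 probe sets, 62 controls were left out; of the others 41091 had 1 gene in the platform annotation, 1801 several and 11721 none listed. The 27307 probe sets with a mean at or above the median of 4.64 were fitted with limma 3.58.1 (R 4.3.3), group plus preparation, with Benjamini-Hochberg adjustment over all of them; the fit had 1 residual degree of freedom and a prior of 4.71 with an SD of 0.101, and was tested on simulated data. With the block, p-values rest on how far the differences in A and B disagree, moderated toward a variance pooled over all probe sets fitted. They do not measure the spread between the arrays of a group. A gene is its probe set with the highest mean. The labels pair A and B across groups; between the groups, A minus B correlated at r = 0.264. Gene order and promoters came from RefSeq (GRCh38.p14); alignments used Biopython 1.88.

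Members and lists were chosen with earlier results of these data known. Named by rule were ARHGDIB, called members (up to 12 in each direction), the 4 highest readings, 2 genes at each side of the level of 7.0, and partner genes called or farthest from 0. A part of the rule by protein domain was not applied, since protein sequences were not used here. All other genes were named after their values were seen. Alternatives dropped the block or 1 array, took 1 preparation, or used other filters, moderation, renormalization, probe set choices, thresholds and levels.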

Additional observations from a re-analysis of the deposited data

How the results depend on the processing

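The members' median of -0.15 stayed below 0 under every alternative run; it was -0.129 in preparation A alone, -0.126 with members kept at a mean of at least 6.0, and -0.156 to -0.133 with 1 array left out. The counts moved more. Against 11 lower and 4 higher, there were 5 and 2 with no replicate block, 1 to 6 and 0 to 1 with 1 array left out, 38 and 9 of 145 above the upper quartile of mean level, 39 and 10 with an intensity trend, 1 and 1 at adjusted p under 0.01, 23 and 7 at 0.10, and 5 and 1 of the 64 members with a mean of at least 8.0. With a mean of at least 6.0 they were 16 and 4 of 223. Lower calls numbered 7 with no filter on low values and 22 when each gene's probe sets were averaged. Robust moderation, quantile normalization again (9 and 4) and leaving out shared-transcript probe sets (9 and 4) kept both counts within 1.5 times. Of the 15 called members, 0 changed sign under the 14 alternatives, except that ZNF107, ZNF43 and ZNF680 have no value without shared-transcript probe sets. ZNF664, not called, ranged from -0.132 to 0.053 with 1 array left out (0.030 without GFP A, 0.053 without GFP-RhoGDI2 B) and was 0.017 with the probe set mean, against -0.04. The cause of these changes was not tested. With 2 arrays a group, differences near the family's median are beyond what single genes can show.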
